A study of Mus musculus with 16 samples.

Results

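Glucose, phosphate, sodium and filtered protein are reclaimed by the proximal tubule of the kidney, and 10 genes of these tasks were followed here in obstructed and control kidneys of wildtype (WT) and IL-33-deficient mice. The genes were chosen by symbol, which the deposited table writes in capitals: SLC5A1, SLC5A2, SLC2A1, SLC2A2, SLC34A1, SLC34A3, SLC9A3, LRP2, CUBN and SLC4A4. Of the 10, 8 had a row among the 18132 genes of the table. The levels of Slc9a3, the apical sodium-proton exchanger NHE3, and Cubn, the endocytic receptor cubilin, were not analysed here.

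Kidney RNA was hybridised to Illumina MouseRef-8 BeadChips, 1 array per kidney, to ask how the early response to unilateral ureteral obstruction (UUO) differs without IL-33. There were 16 arrays, 7 of WT and 5 of IL-33-deficient kidneys harvested 24 h after ligation of the ureter, and 2 untreated control kidneys of each genotype. The labels divide the obstructed kidneys into set 1 (WT 3, IL-33-deficient 2) and set 2 (WT 4, IL-33-deficient 3). For the controls no set is given, so set and treatment cannot be told apart wherever controls enter a comparison. No tissue or cell type is named for the deletion of Il33. The mice were backcrossed to C57BL/6J BomTac, and were 8 weeks old unless the methods stated otherwise. No other allele is named for any group. The methods name isoflurane anaesthesia and buprenorphine for the UUO surgery, and no further agent for these groups. The controls are not labelled as sham-operated, so obstruction cannot be told apart from surgery and these agents. Arrays are called by the number in their label. Values are log2 of the normalised intensity, on which 1 unit is a doubling, and differences are those of group means. A gene is said to have risen or fallen when limma gave an adjusted p under 0.05 over all 18132 genes.

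In the first part of the tubule, apical sodium-coupled carriers draw glucose (Slc5a2, SGLT2; further down Slc5a1, SGLT1) and phosphate (Slc34a1, NaPi-IIa; Slc34a3, NaPi-IIc) out of the filtrate. Glucose then leaves the cell through basolateral facilitative carriers (Slc2a2, GLUT2; Slc2a1, GLUT1), and bicarbonate leaves with sodium through Slc4a4 (NBCe1). Filtered proteins are bound by the receptors megalin (Lrp2) and cubilin and taken up by endocytosis. Loss of these apical transporters is a known feature of injured, dedifferentiating tubule cells.

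The promoters of both phosphate carriers, the members with the largest falls in IL-33-deficient kidneys, and of Slc2a1, the one glucose carrier with a higher mean after obstruction in both genotypes, are shown from RefSeq on GRCm38.p6, from 250 bases before the transcript start to 50 after it. Capitals mark matches to the searched letters on either strand.
Slc34a1, chr13:55399398-55399697, plus strand: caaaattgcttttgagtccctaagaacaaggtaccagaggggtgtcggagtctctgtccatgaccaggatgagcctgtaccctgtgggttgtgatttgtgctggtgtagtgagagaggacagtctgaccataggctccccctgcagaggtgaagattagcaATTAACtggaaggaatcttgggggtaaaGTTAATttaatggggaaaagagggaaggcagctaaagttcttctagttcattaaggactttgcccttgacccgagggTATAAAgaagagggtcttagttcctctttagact
Slc34a3, chr2:25234185-25234484, minus strand: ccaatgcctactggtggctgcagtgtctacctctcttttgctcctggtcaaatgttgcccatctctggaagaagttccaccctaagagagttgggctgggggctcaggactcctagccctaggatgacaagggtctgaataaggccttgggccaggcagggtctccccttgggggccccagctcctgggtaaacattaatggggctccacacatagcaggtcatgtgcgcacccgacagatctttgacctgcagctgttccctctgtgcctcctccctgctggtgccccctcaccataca
Slc2a1, chr4:119108495-119108794, plus strand: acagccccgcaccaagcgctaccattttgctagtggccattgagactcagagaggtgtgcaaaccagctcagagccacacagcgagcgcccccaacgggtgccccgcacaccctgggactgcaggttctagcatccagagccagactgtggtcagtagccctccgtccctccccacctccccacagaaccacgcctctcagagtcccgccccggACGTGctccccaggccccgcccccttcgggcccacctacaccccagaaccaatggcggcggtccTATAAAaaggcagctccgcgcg
The Slc34a1 promoter held the core GTTAAT of the HNF1 element, a site for a transcription factor of proximal tubule cells, once on each strand, at -61 to -56 on the plus and -89 to -84 on the minus strand counted from the transcript start. This core was in 7.1% of the 32851 promoters searched. It also held TATAAA, present in 13.6% of promoters, at 16 to 21 after the start. The Slc2a1 promoter held ACGTG, the core of the hypoxia response element, at -36 to -32, which was in 19.6% of promoters, and TATAAA at 28 to 33. The Slc34a3 promoter held none of the letters searched, which also included AAGTCCA (the HNF4 core, in 4.17% of promoters), TGANTCA (the AP-1 element, 7.81%) and CACGTG (the E-box, 7.15%, which contains ACGTG). Of the other members, Slc5a1 held CACGTG at -143 to -138, Slc9a3 held it at -87 to -82, and Slc2a2, Lrp2, Slc4a4 and Cubn held none. Slc5a2 was not searched. These are matches of letters, and binding was not measured.

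Il33 itself read 7.62 and 8.02 in the WT controls and 8.39 to 9.57 in WT kidneys after UUO, but 6.85 and 6.88 in the IL-33-deficient controls and 6.80 to 7.02 in obstructed IL-33-deficient kidneys, so the labels and the targeted gene went together in all 16 arrays. The array medians lay between 132 and 133 intensity units. Most members were above the median of their array on all 16 arrays, but Lrp2 was above it on 14 and Slc4a4 on 2, so the values of the last pair were close to or within the dim part of the table. The lowest intensity in the table was 95.5, a floor that was not subtracted in the main fit. If it is background, it shrinks the differences of dim genes.

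The sodium phosphate carriers showed the largest differences in IL-33-deficient kidneys, and Slc34a3 the largest in WT kidneys too. Slc34a3 read 9.48 and 9.40 in the 2 WT controls, and a lowest value of 7.39, a median of 8.02 and a highest value of 8.81 in the 7 obstructed WT kidneys. In IL-33-deficient kidneys it read 9.49 and 9.70 in the controls and 7.27, 7.26, 7.71, 7.27 and 7.71 after UUO. All obstructed kidneys were below all controls in both genotypes. The falls were -1.48 (SE 0.28) in WT kidneys, to 35.9% of the control level (adjusted p = 0.00267, limma), and -2.15 (SE 0.29) in IL-33-deficient kidneys, to 22.5% (adjusted p = 1.25e-04, limma). The size of this fall depended on the background: with 90 units subtracted from every intensity it was -1.99 in WT and -3.06 in IL-33-deficient kidneys. With the obstructed kidneys of set 1 alone against the controls the WT difference of -1.27 did not pass (adjusted p = 0.133, limma).

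Slc34a1, the main phosphate carrier of the brush border, read 14.30 and 14.20 in the WT controls and 14.35 and 14.22 in the IL-33-deficient controls. The 7 obstructed WT kidneys ran from 12.96 over a median of 13.79 to 14.28, with array 3820 at the top within the range of the controls and array 3819 at the bottom. The 5 obstructed IL-33-deficient kidneys read 12.23, 12.49, 12.98, 12.71 and 13.42. All of these lay below their controls, and the WT kidneys overlapped theirs. Slc34a1 fell by 1.52 (SE 0.32) in IL-33-deficient kidneys, to 34.9% of control (adjusted p = 0.00312, limma). In WT kidneys the difference was -0.58 (SE 0.31, adjusted p = 0.272, limma), and it passed with the obstructed kidneys of set 2 alone against the controls (-0.66, adjusted p = 0.0251).

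Among the glucose carriers, Slc5a1 fell in both genotypes and Slc5a2 in IL-33-deficient kidneys. Slc5a1 read 8.61 and 8.60 in the WT controls and from 8.06 over a median of 8.16 to 8.49 in obstructed WT kidneys, and 8.60 and 8.39 in the IL-33-deficient controls against 8.05, 8.004, 8.16, 8.01 and 8.34 after UUO. No obstructed kidney reached the controls of its genotype, and the gap was narrow in IL-33-deficient kidneys. The falls were small, 0.40 (SE 0.10) in WT (adjusted p = 0.0174, limma) and 0.38 (SE 0.11) in IL-33-deficient kidneys (adjusted p = 0.0204, limma). The WT call was lost without either WT control (adjusted p = 0.133 without 3811 and 0.132 without 3812), and the IL-33-deficient call without control 3813 (-0.27, adjusted p = 0.262) or with set 2 alone (-0.32, adjusted p = 0.0643).

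Slc5a2, which carries most filtered glucose, read 10.20 and 9.995 in the WT controls and from 8.82 over a median of 9.43 to 10.09 after UUO, an overlap made by array 3820. It read 9.70 and 10.20 in the IL-33-deficient controls and 8.31, 8.60, 9.52, 9.23 and 9.21 after UUO, with no overlap. The first pair of these values, from set 1, lay below the 3 from set 2. Slc5a2 fell by 0.98 (SE 0.31) in IL-33-deficient kidneys, to 50.8% of control (adjusted p = 0.0369, limma), while the WT difference was -0.66 (SE 0.30, adjusted p = 0.181, limma). The call in IL-33-deficient kidneys was lost without control 3813 or 3814 or obstructed kidney 3821 or 3822 (adjusted p = 0.0723, 0.312, 0.0644 and 0.0743, differences from -1.22 to -0.73) and with the arrays of that genotype alone (0.0503). The WT difference passed with set 2 alone (-0.72, adjusted p = 0.00172).

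The basolateral glucose carriers did not pass the test in either genotype. Slc2a1 read 9.85 and 9.35 in the WT controls and from 9.55 over a median of 10.19 to 10.44 in obstructed WT kidneys, and 9.84 and 9.40 in the IL-33-deficient controls against 10.08, 10.38, 10.22, 10.27 and 9.74 after UUO. In each genotype 1 obstructed kidney, 3818 in WT and 3899 in IL-33-deficient mice, lay within the range of the controls and the rest above it. The differences were 0.57 (SE 0.21, adjusted p = 0.0852, limma) and 0.52 (SE 0.22, adjusted p = 0.115, limma), and without array 3818 they were 0.67 (adjusted p = 0.0108) and 0.52 (adjusted p = 0.0376). In WT kidneys Slc2a1 also passed with set 2 alone (0.66, adjusted p = 0.0148, limma) and with array weights (0.60, adjusted p = 0.0235), but not with set 1 alone (0.46, adjusted p = 0.499). Leaving out a control moved the differences more than leaving out array 3818. Without WT control 3812 the WT difference was 0.32 (adjusted p = 0.612) and without 3811 it was 0.82 (adjusted p = 0.0952), and in IL-33-deficient kidneys it was 0.30 (adjusted p = 0.592) without control 3814 and 0.74 (adjusted p = 0.113) without 3813. Slc2a2 differed by -0.09 in WT (95% interval -0.38 to 0.21) and by 0.05 in IL-33-deficient kidneys (-0.26 to 0.36), and its groups overlapped.

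Megalin and the bicarbonate carrier, the dim members, did not pass either. Lrp2 ran from 7.43 to 7.51 in the WT controls and from 7.06 to 7.63 after UUO, a difference of -0.23 (SE 0.11, adjusted p = 0.217, limma). Without array 3820, its highest kidney, that difference was -0.29 and passed (adjusted p = 0.0103). It also passed with set 2 alone (-0.30, adjusted p = 0.0136, limma) and with array weights (-0.28, adjusted p = 0.0299), but not with set 1 alone (-0.13, adjusted p = 0.761). In IL-33-deficient kidneys Lrp2 ran from 7.19 to 7.43 in controls and from 7.05 to 7.24 after UUO, a difference of -0.20 (adjusted p = 0.287, limma). Slc4a4 ran from 6.74 to 7.17 over all 16 arrays, with differences of 0.07 (95% interval -0.12 to 0.25) and 0.09 (-0.10 to 0.28).

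**Figure D1:**
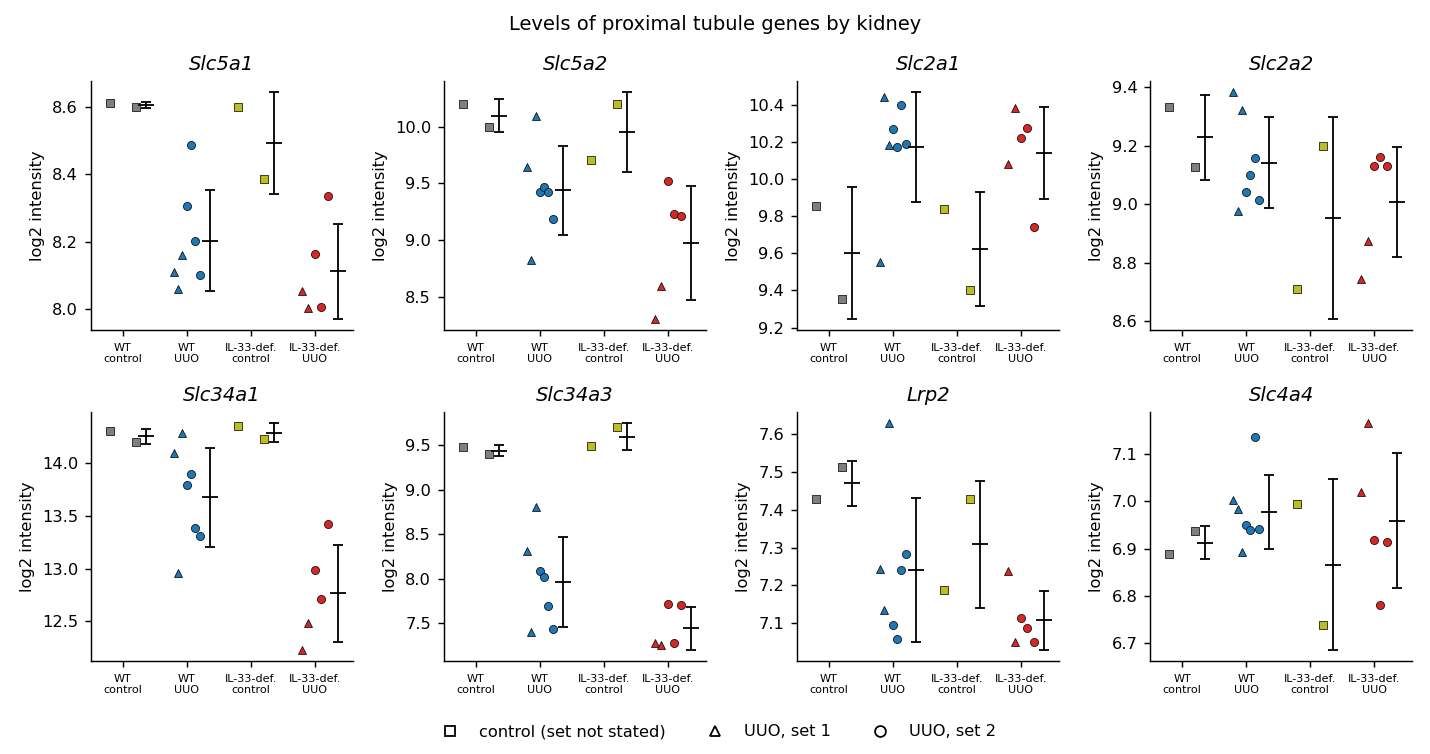
Log2 intensity (vertical axis) of the 8 members in each of 16 kidneys by group, with squares for controls, triangles and circles for obstructed kidneys of set 1 and set 2, and bars for mean and SD. The obstructed kidneys lie below both controls of their genotype for Slc5a1 and Slc34a3 in WT and for Slc5a1, Slc5a2, Slc34a1 and Slc34a3 in IL-33-deficient mice.

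Counted together, 2 of 8 members fell and 0 rose in WT kidneys, where 8.22% of all genes fell and 6.97% rose. By unadjusted p under 0.05 (limma) the count was 4, where 26% of all genes passed. In IL-33-deficient kidneys 4 of 8 fell and 0 rose, where 11.2% of all genes fell and 10.6% rose. Here 5 were under an unadjusted p of 0.05, as were 30.7% of all genes. These shares include dim genes, and most members were brighter. A fit of the brighter genes alone kept 9066 genes and 7 members. It called 2989 genes and 3 members in WT kidneys, Slc2a1 among them as a rise. In IL-33-deficient kidneys it called 4023 genes and 4 members. Whether members fell more often than genes of like brightness was not tested. The members that fell were also those whose groups did not overlap, a separation downward that 11.2% of all genes showed in WT and 17.5% in IL-33-deficient kidneys. The median difference of the members was -0.32 in WT and -0.29 in IL-33-deficient kidneys, against 0.00 over all genes in both. Bulk RNA does not tell fewer proximal tubule cells from less RNA of these genes in each cell.

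After UUO, all 8 members had a lower mean in IL-33-deficient than in WT kidneys, and none of the differences passed the test. The count was 0 at an adjusted p under 0.05, where 0.00552% of genes, Il33 alone, passed, and 0 at the looser threshold of the study (a fold above 1.3 with p under 0.05 before and under 0.25 after adjustment), which 0.011% of genes met. By unadjusted p under 0.05 the count was 2, Slc34a1 and Slc34a3, where 10.3% of all genes passed. No member separated the genotypes without overlap, which 0.756% of all genes did. The median difference of the members was -0.13 against 0.00 over all genes. Of 19 other proximal tubule markers, 16 also had a lower mean in IL-33-deficient kidneys, with a median difference of -0.28 and 0 called.

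Slc34a1 had the largest of these differences, -0.91 (SE 0.25, 95% interval -1.44 to -0.37, unadjusted p = 0.00287, adjusted p = 0.311, limma; exact permutation p = 0.0126, two-sided, 792 splits). It ranked 157 among all genes by p. Of the 5 obstructed kidneys with the lowest Slc34a1, 4 were IL-33-deficient and the other was WT array 3819. Within the sets the difference was -1.42 in set 1 and -0.56 in set 2, and with set as a block it was -0.91 (adjusted p = 0.279). Without WT arrays 3818 and 3820, left out after their values were seen, it was -0.70. It met the looser threshold under 4 of 11 other settings and without 3819 or 3899. One of the 4 set the IL-33-deficient kidneys against the WT kidneys of set 2 alone (-0.83, adjusted p = 0.126, limma), which gives groups of 5 and 4 as in the contrast of the study, whose WT arrays are not named.

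For Slc34a3 the difference was -0.52 (SE 0.22, adjusted p = 0.446, limma; exact permutation p = 0.0606), with -0.91 in set 1, -0.24 in set 2 and -0.28 without arrays 3818 and 3820, and it met the looser threshold without 3819. For Slc5a2 it was -0.46 (SE 0.23, adjusted p = 0.525, limma), with -1.07 in set 1 and -0.06 in set 2. In these 3 genes the WT kidneys of set 1 spread more widely than those of set 2, and the sets were not tested against each other. The other 5 members differed by -0.13 to -0.02.

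**Figure D2:**
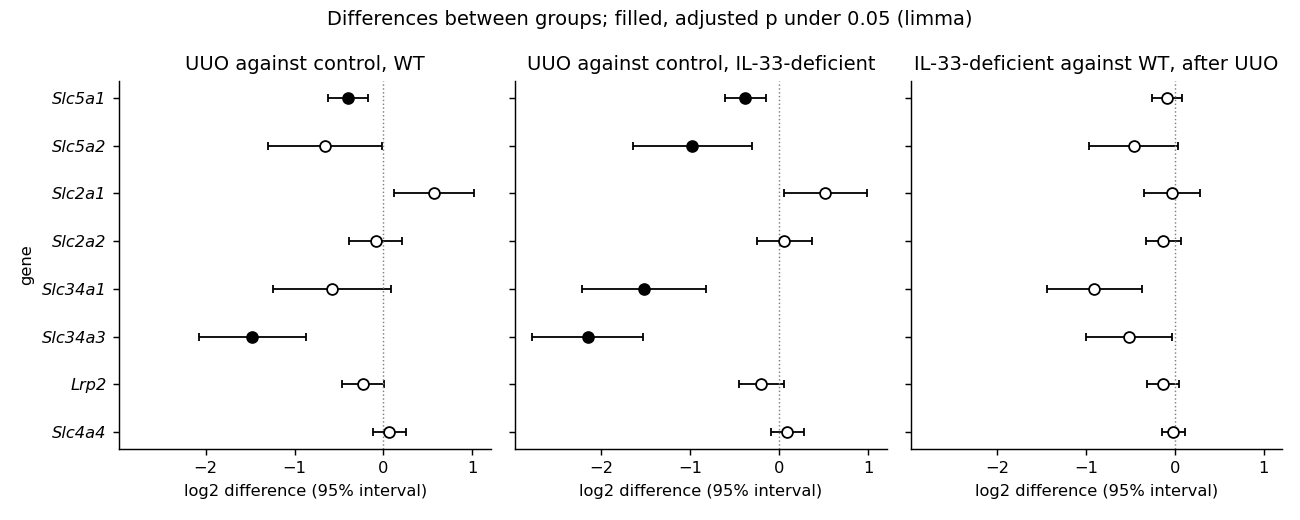
Log2 difference (horizontal axis) with 95% interval of each member for UUO against control in WT and IL-33-deficient kidneys and, after UUO, for the IL-33-deficient kidneys relative to WT, filled where the adjusted p was under 0.05. Filled points are Slc5a1 and Slc34a3 in WT and Slc5a1, Slc5a2, Slc34a1 and Slc34a3 in IL-33-deficient kidneys, and none in the last panel.

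The difference between the genotypes in the response to UUO was tested as an interaction. It was called for 0 members and for 0% of all genes, and 0 members were under an unadjusted p of 0.05, which 860 genes were (limma). For Slc34a1 it was -0.94 (SE 0.45, unadjusted p = 0.0543, adjusted p = 0.973, limma) and for Slc34a3 -0.68 (SE 0.41, adjusted p = 0.973, limma). So a fall called in one genotype and not in the other, as for Slc34a1 and Slc5a2, was not shown to differ between them. Between the control kidneys 0 members and 0% of all genes were called, with 0 members under an unadjusted p of 0.05, which 664 genes were (limma). With 2 kidneys against 2, the widest 95% interval of a member was that of Slc34a1, from -0.79 to 0.86.

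Carriers with the same load were then compared within each kidney, as the difference of their log2 values, in 9 tests. Slc34a1 minus Slc34a3 was 4.81 ± 0.01 (SD, n = 2) in WT controls and 5.71 ± 0.15 (SD, n = 7) after UUO, a rise of 0.90 (exact permutation p = 0.0278, the smallest that 36 splits can give; adjusted p = 0.125). In IL-33-deficient kidneys it was 4.69 ± 0.24 (SD, n = 2) and 5.32 ± 0.28 (SD, n = 5), a difference of 0.63 (exact permutation p = 0.0476, the smallest that 21 splits can give; adjusted p = 0.143). Neither passed the adjustment, but both were already at the smallest p that 2 controls allow. To pass, most or all of the 9 tests would have had to be as low, so no conclusion is drawn from this. In controls Slc34a1 read 19265 to 21371 intensity units, close to the top of the table, where 99.8% of genes were dimmer by their mean, and whether its signal was compressed there was not tested. After UUO, IL-33-deficient kidneys differed from WT in this value by -0.39 (exact permutation p = 0.0114, adjusted p = 0.102). That last difference depended on the background, since with 90 units subtracted from every intensity, a setting added after seeing the data, it was -0.027 (exact permutation, adjusted p = 0.894), while the changes after UUO were 1.41 and 1.53. Slc5a2 minus Slc5a1 and Slc2a2 minus Slc2a1 had adjusted p from 0.188 to 0.684 by the same exact test.

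**Figure D3:**
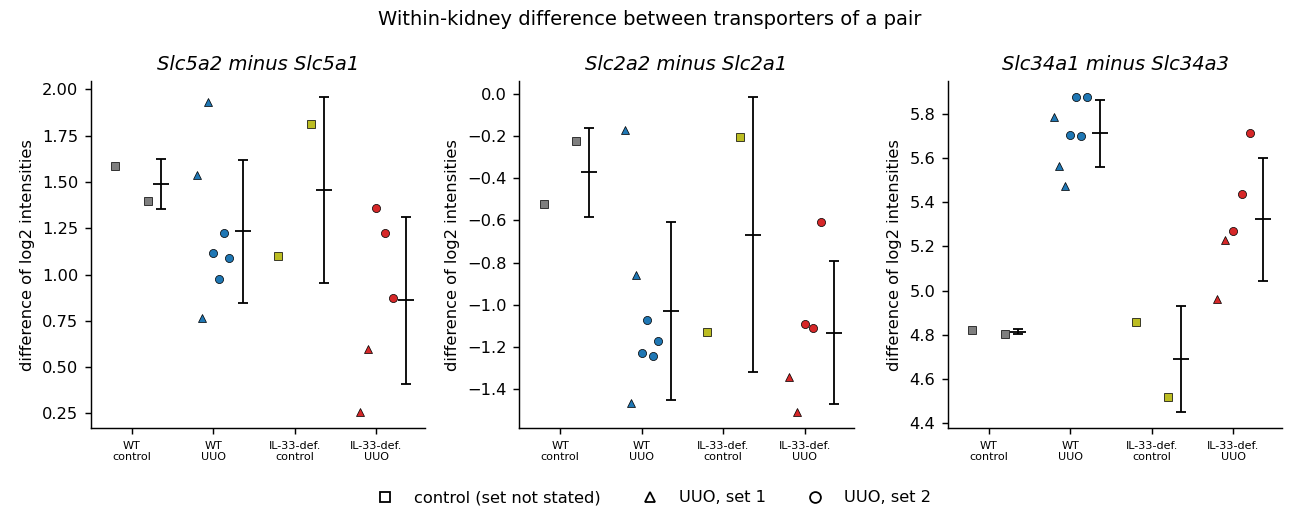
Difference of log2 intensities (vertical axis) between the carriers of a pair in each kidney, by group, with mean and SD. The values for Slc34a1 minus Slc34a3 in the obstructed kidneys lie above both controls of their genotype.

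Havcr1, the injury molecule KIM-1 of the proximal tubule, shows how far the kidneys differed in their response. It ran from 7.07 to 7.37 in the 4 controls, from 10.42 in array 3820 to 13.95 in array 3819 in obstructed WT kidneys and from 13.61 to 13.87 in obstructed IL-33-deficient kidneys. Array 3820, with the lowest Havcr1 of the obstructed kidneys, had the highest Slc5a2, Slc34a1, Slc34a3 and Lrp2 of its group. Array 3819, with the highest Havcr1, in turn had the lowest Slc5a1, Slc5a2, Slc2a2, Slc34a1 and Slc34a3 of the obstructed WT kidneys. The part of the extent of injury in the differences between genotypes was not tested.

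**Figure D4:**
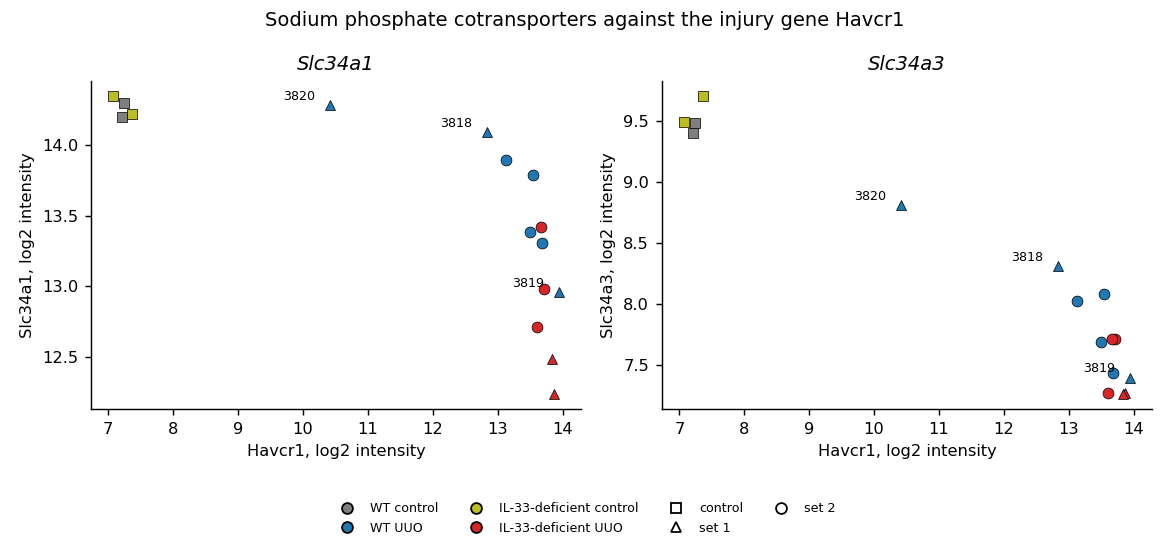
Log2 intensity of Slc34a1 and Slc34a3 (vertical axes) against that of Havcr1 (horizontal axis) in 16 kidneys, by group and set, with the 3 WT kidneys of set 1 numbered. Array 3820, at a Havcr1 of 10.42, lies between the controls and the other obstructed kidneys for Havcr1 and Slc34a3, and within the range of the controls for Slc34a1.

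The genes whose pattern was most like that of a member that fell were found by the root mean square difference of centred log2 values over the 16 arrays. For Slc34a1 they were Fbp1 (0.17), an enzyme of gluconeogenesis, Slc6a13 (0.20) and Acox2 (0.20), where the spread of Slc34a1 about its own mean was 0.68. For Slc34a3, with a spread of 0.87, they were Slc5a8 (0.17), a sodium-coupled monocarboxylate carrier, Ascc1 (0.18) and Cox7a1 (0.19). For Slc5a2 they were Akp2 (0.17), an alkaline phosphatase, Cryl1 (0.18) and Klk1b5 (0.19), with a spread of 0.53, and for Slc5a1 Akr1c14 (0.08), Mlxipl (0.10) and Pcdh24 (0.10), with a spread of 0.21.

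Partners of the members in each task were counted over lists, whose medians stand against 0.00 over all genes and whose counts stand against the shares of all genes given above. Of 19 phosphate genes, 7 fell and 1 rose in WT and 8 fell and 2 rose in IL-33-deficient kidneys, with median differences of -0.20 and -0.36. Pdzk1, a scaffold of the brush border, fell (-0.90 in WT and -1.12 in IL-33-deficient kidneys), as did Slc9a3r2, another scaffold (-0.71 and -0.49). The scaffold Slc9a3r1 did not pass (-0.06 and -0.21). Kl, the co-receptor klotho for FGF23, fell (-1.27 and -1.88), and so did Pth1r, the receptor for parathyroid hormone (-0.57 and -0.79). The carriers in the other direction were Slc34a2, the NaPi-IIb carrier, which rose by 1.00 and 1.31, and Slc20a1, a phosphate carrier of most cells, which differed by 0.94 in WT (adjusted p = 0.0546, limma) and rose by 1.17 in IL-33-deficient kidneys.

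Of 21 glucose genes, 9 fell in WT and 12 in IL-33-deficient kidneys and 0 rose, with medians of -0.32 and -0.44. G6pc, the enzyme that releases glucose from its phosphate, fell the most of the list (-3.25 and -4.08). The inositol carriers Slc5a11 (-1.06 and -1.45) and Slc5a3 (-0.41 and -0.34) fell as well. Pdzk1ip1, a partner of SGLT2, did not pass (0.24 and 0.16), nor did Gckr, the regulator of glucokinase (0.045 and 0.0094). The mean of Gckr, 6.79, was in the dim part of the table, where a change could be missed.

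Of 18 genes of sodium and bicarbonate handling, 6 fell in WT and 9 in IL-33-deficient kidneys and 0 rose, with medians of -0.22 and -0.33. Slc9a8, a sodium-proton exchanger, fell (-1.77 and -2.13), as did the membrane carbonic anhydrases Car4 (-1.37 and -2.35) and Car14 (-1.83 and -2.41) and the adenylyl cyclase Adcy6 (-0.37 and -0.33). The mitochondrial carbonic anhydrase Car5b (0.10 and 0.13) and the kinase Sgk1 (0.33 and -0.46) did not pass.

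Of 22 endocytosis genes, 6 fell and 2 rose in WT and 7 fell and 3 rose in IL-33-deficient kidneys, with medians of -0.03 and -0.09. Amn, which brings cubilin to the membrane, fell (-0.76 and -0.99), and so did Lrpap1, the chaperone of megalin (-0.98 and -1.58). The adaptors Dab2 and Gipc1, which bind the tail of megalin, rose by 0.63 and 0.51 and by 0.22 and 0.27. After UUO, 0 genes of these 4 lists were called between the genotypes (limma), as for 0.00552% of all genes.

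**Figure D5:**
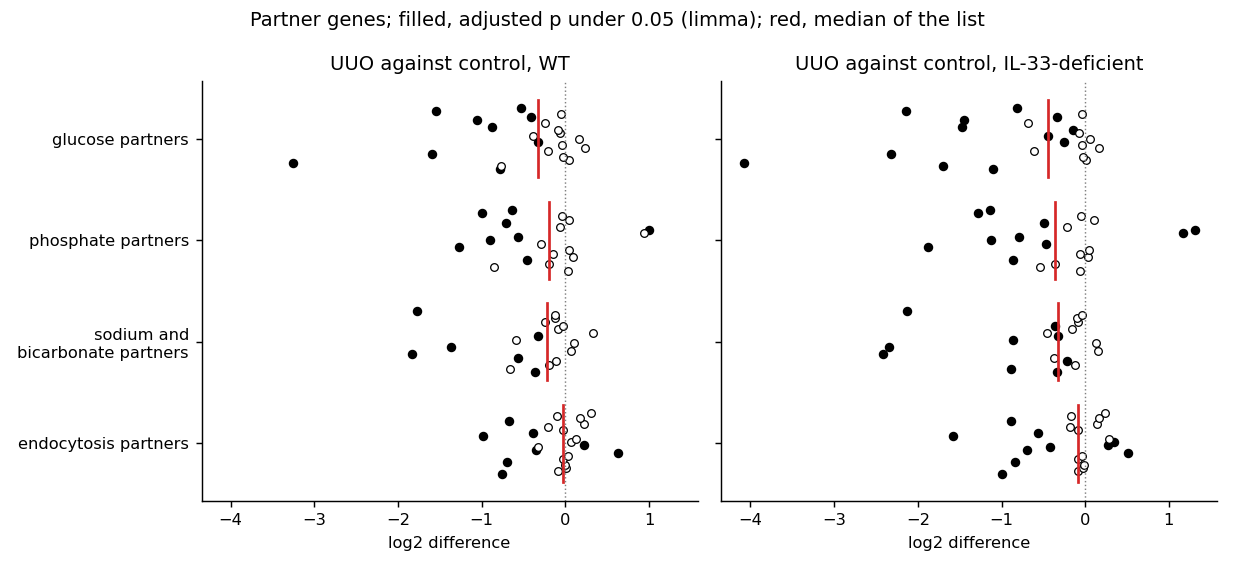
Log2 difference (horizontal axis) of each partner gene after UUO in WT and IL-33-deficient kidneys by list, filled where the adjusted p was under 0.05, with the median of each list in red. The medians lie below 0 in all 4 lists in both genotypes, closest to 0 for endocytosis.

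Markers of the tubule and of other cells were counted over lists in the same way. Of 19 other proximal tubule markers, 6 fell in WT and 13 in IL-33-deficient kidneys and 0 rose, and their summed intensity was 96340 to 96965 in WT controls, 48747 to 87862 in obstructed WT, 99653 to 104397 in IL-33-deficient controls and 40250 to 56811 in obstructed IL-33-deficient kidneys. Of 9 thick limb and distal tubule markers 7 and 5 fell, though Umod did not pass (-0.57 and -0.37), and of 11 collecting duct markers 5 and 5, among them Aqp2 (-1.08 and -1.42). Of 9 tubule injury markers 8 rose in WT and 9 in IL-33-deficient kidneys, with sums of 5829 to 7412 over the controls, 22103 to 49718 in obstructed WT and 40357 to 51178 in obstructed IL-33-deficient kidneys. Of 12 leukocyte markers 2 and 5 rose and 1 and 1 fell, with sums of 2284 to 2817 over the controls, 2876 to 5614 and 3717 to 6170. Ptprc, which defines these cells, did not pass (-0.03 and 0.01), but its mean of 6.84 was in the dim part of the table, where a change could be missed. Of 9 fibroblast and smooth muscle markers 5 and 6 rose, among them Pdgfrb (0.40 and 0.69), and 1 fell in WT. Their sums were 3479 to 3967 over the controls, 3489 to 5344 in obstructed WT and 5689 to 6640 in obstructed IL-33-deficient kidneys. The sums of the obstructed kidneys did not overlap between genotypes in this list, while those of every other marker list did. Of 8 endothelial markers 2 and 3 fell and 1 rose in IL-33-deficient kidneys. After UUO, 0 genes of these marker lists were called between the genotypes (limma), as for 0.00552% of all genes, and the sums were not tested. The part of these markers in the differences of the members was not tested.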

How the data were processed

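The authors labelled kidney RNA, hybridised it to Illumina BeadChips, read it with BeadStudio 2 per the submitters' processing notes, imported it with beadarray and deposited linear intensities for 18132 genes and 16 arrays. Background correction, normalization and the joining of probes are not given in the sources used here. The arrays already had like distributions, with a median spread of 0.706% across arrays at equal rank. The number of arrays limits the precision. Intensities were quantile-normalized, taken to log2 and fitted in limma 3.58.1 (lmFit, eBayes; R 4.3.3), over the 16 arrays in 4 groups or, between genotypes after UUO, the 12 UUO arrays, with Benjamini-Hochberg adjustment over all genes. Single values were compared with two-sided exact permutation tests (Python 3.11.15, numpy 2.4.6, scipy 1.17.1, pandas 2.3.3), and plots used matplotlib 3.10.9. The labels call the samples kidneys of WT or IL-33-deficient mice. The limma p-values set each difference against a spread between kidneys that the groups of a fit share and that is moderated over genes. With 2 controls per genotype, that spread is not the one among the controls alone. The fit was tested on simulated data.

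Members, lists, motifs and tests were chosen with earlier results of these data known. Named were all members, Il33, a set of partners (of which Clcn5 was not analysed here), from each partner list the 2 genes of lowest adjusted p in each direction in WT, marker genes, and the 3 genes nearest to each member that fell. The pairs with Cubn or Slc9a3 were not computed. Symbols were matched by RefSeq synonyms where the table used an older name. Alternatives covered normalization, background, variance prior, array weights, dim genes, sets of mice, the arrays in the fit and each array left out. One marker list is not reported here.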

Additional observations from a re-analysis of the deposited data

Results flagged for a closer look

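Slc2a1 read 9.55 in the obstructed WT kidney 3818, where the other 6 of its group read 10.17 to 10.44, a gap of 0.695 of the whole range of the group. Lrp2 read 7.63 in the obstructed WT kidney 3820, where the others read 7.06 to 7.28, a gap of 0.605 of the range. These were 2 of 16 combinations of a member and a group of obstructed kidneys in which 1 kidney stood apart from the others by Dixon's criterion, which chance gives in about 1 in 20.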

How the results depend on the processing

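In WT kidneys the number of members called after UUO was 4 with array weights, 1 with the obstructed kidneys of set 1, 6 with those of set 2, 5 without both 3818 and 3820 (added after seeing the data), and 1 to 3 with each array left out, against 2 as reported. The share of all genes called moved with it, to 22.2%, 1.04%, 23.4% and 22.7% under the first 4 of these, against 15.2%. With each array left out that share was 4.46% to 19.7%. In IL-33-deficient kidneys the number of members called was 2 to 5 with each array left out, against 4. The share of all genes called was then 12.6% to 23.7%, against 21.8%. The number was 3 with the obstructed kidneys of set 2 (24.6% of all genes) and with the arrays of that genotype alone (23.5%), so here the share did not move with it. The counts between genotypes and for the interaction were 0 under all settings run. Single members changed sign in set 1 alone: Slc2a2 in the response of IL-33-deficient kidneys (-0.15), Slc2a1 (0.17) and Slc4a4 (0.13) between genotypes after UUO, and Slc2a1 (0.16), Slc2a2 (-0.14) and Lrp2 (-0.030) in the interaction. In set 2 alone they were Slc2a2 after UUO (0.062) and, in the interaction, Slc5a2 (0.091) and Slc4a4 (-0.076), and without both 3818 and 3820 Slc5a1 in the interaction (-0.0049). Of the pairs after UUO, Slc5a2 minus Slc5a1 (0.050) and Slc2a2 minus Slc2a1 (0.24) changed sign in set 2. With each array left out, differences that were not called changed sign over these ranges. In the response of WT kidneys, Slc2a2 ran from -0.19 to 0.016. In the response of IL-33-deficient kidneys, Slc2a2 ran from -0.19 to 0.30 and Slc4a4 ran from -0.035 to 0.22. Between genotypes after UUO, Slc2a1 ran from -0.14 to 0.068 and Slc4a4 ran from -0.071 to 0.026. In the interaction, Slc2a1 ran from -0.30 to 0.20, Lrp2 ran from -0.090 to 0.15, Slc5a1 ran from -0.085 to 0.13, Slc2a2 ran from -0.10 to 0.38 and Slc4a4 ran from -0.10 to 0.15. Between control kidneys, Slc2a1 ran from -0.23 to 0.27, Slc34a1 ran from -0.028 to 0.097, Slc5a2 ran from -0.39 to 0.10 and Slc4a4 ran from -0.17 to 0.081. Of the pairs after UUO, Slc2a2 minus Slc2a1 ranged from -0.23 to 0.042 and Slc34a1 minus Slc34a3 from -0.49 to -0.30, which passed without array 3899 alone (exact permutation, adjusted p = 0.0273). The cause was not tested. No paired analysis was possible because the groups share no replicate numbers.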
